A study of Mus musculus with 3 samples.

Results

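Granular layer keratinocytes are the last living cells of the epidermis before it hardens into the cornified layer. Here they were taken as the cell barcodes in which the summed raw counts of Klk7, Cdsn, Ivl and Cnfn reached at least 10 per 10000 counts. Klk7 is a protease of desquamation, Cdsn the adhesive protein corneodesmosin, and Ivl and Cnfn the cornified envelope proteins involucrin and cornifelin. Barcodes also needed at least 200 detected genes and at most 20% of counts from mitochondrially encoded genes, and 5 Lce1 genes together below 0.5% of counts. Stfa3, a stefin, had to be below 2 counts, and Krt79, Ptprc and Col1a2, markers of the upper hair follicle, of leukocytes and of fibroblasts, all at 0. Members were thus chosen by measured counts of these genes, which are described below and not tested. In all, 6487 of 20728 barcodes met the rule.

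The study profiled dissociated whole skin of 9-week-old C57BL/6 mice with the Singleron GEXSCOPE kit, in 3 libraries with 1 library per group. The control mouse skin was not irradiated and received saline, the UV skin was irradiated and received saline, and the third group was irradiated and received VD, taken to be vitamin D because the title of the series names it. The labels give no number of animals, no UV dose, no vitamin D dose and no time after irradiation. With 1 library per group no test between conditions was possible, batch and group cannot be told apart, and each difference below is one between these libraries. Square brackets hold 95% intervals that cover counting error only.

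Keratinocytes move upward through the epidermis and change their genes in sequence. Spinous cells make the keratins Krt1 and Krt10, and granular cells then fill with keratohyalin granules of profilaggrin and with lipid-loaded lamellar bodies, form tight junctions and assemble the cornified envelope from involucrin, loricrin and small proline-rich proteins crosslinked by transglutaminases. In the cornified layer kallikrein proteases, held back by inhibitors such as Spink5, cut the corneodesmosomes so that dead cells shed. Calcium and vitamin D signalling both act on this programme, and UVB light is absorbed largely in the epidermis.

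The members numbered 2877 in control, 832 in UV and 2778 in UV plus vitamin D, with 35433293, 10501827 and 40594153 counts in all. The median member held 11642, 12191 and 13453 counts and 2472, 2424 and 2587 genes. Mitochondrial genes took a median of 2.09%, 2.11% and 1.87% of counts, and rRNA 8.04%, 7.25% and 5.48%. Doublets were not called. Pairs of libraries shared 37 to 66 of all barcodes and 1 to 7 of the members' barcodes.

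Spink5, the LEKTI inhibitor of the kallikreins and the granular marker that the rule did not use, was measured as a check of the label. It stood at 2238 CPM (counts per 1000000 counts of the summed members) in control, 2335 in UV and 2467 in UV plus vitamin D. In spinous barcodes of the same libraries (keratin barcodes below the limit of the 4 genes, with Krt1 and Krt10 above Krt5 and Krt14) Spink5 was at 536, 379 and 543 CPM, and in basal ones at 85.8, 59.9 and 88.3 CPM. With every barcode thinned to 2500 counts, Spink5 was seen in 84.8%, 84.6% and 91.5% of members (92.1%, 92.4% and 96.1% unthinned). In fibroblast barcodes, which should lack it, the thinned share for Spink5 was 18.7%, 16.5% and 21.8% (unthinned 33.1%, 28.3% and 34.5%), at median depths of 5020, 6616 and 5584.5 counts. The genes of the rule describe the choice and nothing more: Klk7, Cdsn, Ivl and Cnfn all stood highest in the members with the largest 4-gene sum.

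The share of barcodes that met the whole rule was 31.7% [30.7, 32.7] in control (2877 of 9078), 15.3% [14.3, 16.2] in UV (832 of 5451) and 44.8% [43.6, 46.1] in UV plus vitamin D (2778 of 6199). Against control, the UV share was 2.08-fold lower [1.94, 2.23] and that with vitamin D 1.41-fold higher [1.36, 1.47]. Over barcodes with keratins (Krt1, Krt10, Krt5 and Krt14 together at least 100 per 10000) the shares were 40.1%, 25.4% and 55.2%. The limit of the 4 genes alone left UV and control close, with a ratio of 1.02 [0.985, 1.06]: 44.1% [43.1, 45.1] of control barcodes passed it, 45.1% [43.8, 46.4] of UV barcodes and 59.0% [57.8, 60.2] with vitamin D.

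The remaining limits removed more of the UV barcodes. The Lce1 limit took 161 control, 139 UV and 338 UV plus vitamin D barcodes, and the Stfa3 limit then took 22, 485 and 51. Of what was left, the limit on Krt79, Ptprc and Col1a2 took 24.7%, 54.6% and 15.0%. Krt79 was counted in 18.6%, 34.1% and 10.6% of these barcodes, Ptprc in 1.78%, 7.25% and 1.25%, and Col1a2 in 5.65%, 23.0% and 3.58%. Of the barcodes that held Col1a2, 73.6%, 75.1% and 67.5% held a single count of it. Whether free RNA, doublets or other cells gave these counts was not tested.

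**Figure D1:**
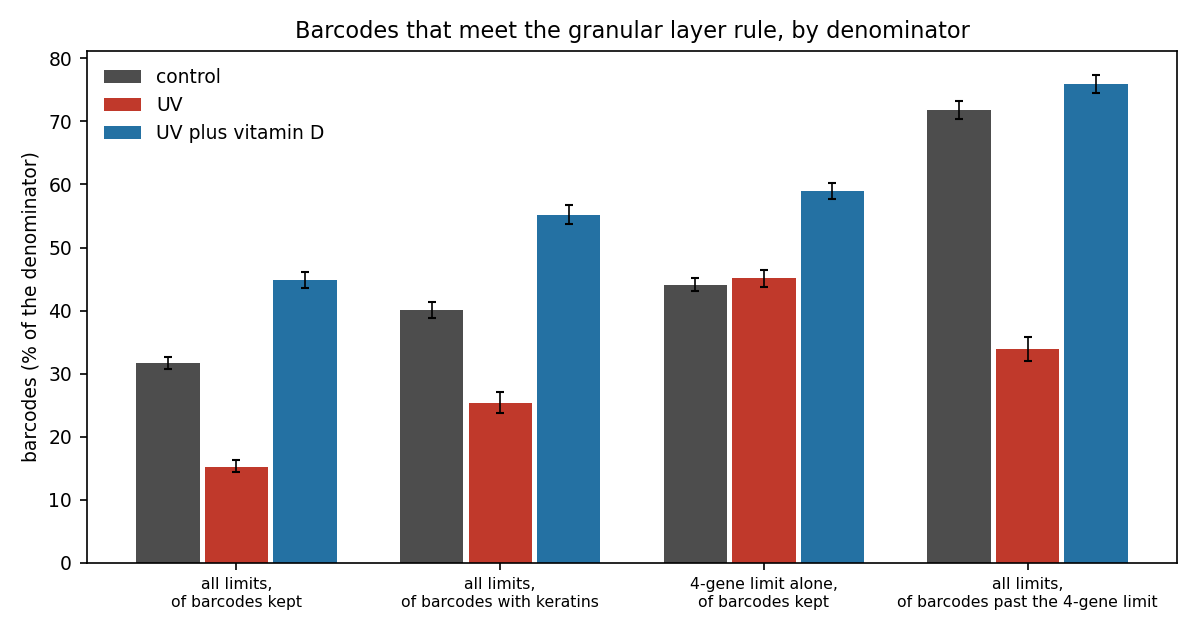
Share of barcodes (vertical axis, percent of the denominator named under each set) in control (grey), UV (red) and UV plus vitamin D (blue), with exact binomial 95% intervals. UV stands lowest at 15.3% when all limits apply, and next to control, 45.1% against 44.1%, when the limit of the 4 genes applies alone.

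Members were not of one kind. By their 4-gene sum, 697, 556 and 1624 control members fell at 10 to 20, 20 to 40, and 40 and over per 10000. The numbers were 150, 131 and 551 in UV, and 463, 400 and 1915 in UV plus vitamin D. So 56.4%, 66.2% and 68.9% of members were in the top bin, and the median sum was 50.8, 77.3 and 88.9 per 10000. Just inside the limit, at 10 to 12, were 204, 43 and 134 members, and just outside it, at 8 to 10, were 354, 92 and 196 barcodes.

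Late genes outside the rule were concentrated in the top bin. Lor, which encodes loricrin, the main protein of the mouse cornified envelope, was at 89.8, 94.3 and 1028 CPM along the 3 bins in control, close to the spinous 76.6 CPM in the lower bins. In Lce1-rich barcodes, which the rule leaves out, Lor reached 35904 CPM in control, 32188 in UV and 36366 in UV plus vitamin D. Flg2, a fused S100 protein of the keratohyalin granule, was at 31.8, 28.8 and 600 CPM along the control bins and at 4059 CPM in the Lce1-rich barcodes. Crct1, a gene of the same chromosomal cluster of differentiation genes, ran from 94.2 through 97.9 to 1536 CPM.

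Krt1 and Krt16 ran the other way. Krt1 was at 5013 CPM in control spinous barcodes, at 3249, 3032 and 1665 along the bins and at 287 in Lce1-rich ones. Krt16, a stress-inducible keratin, was at 683, 466 and 237 CPM along the control bins. The 15 spinous and early suprabasal genes together were not lower in the members than in spinous barcodes. They summed to 65142, 78401 and 76074 CPM in spinous barcodes of control, UV and UV plus vitamin D, and to 76011, 86441 and 81485 CPM in the members. In Lce1-rich barcodes they summed to 46207, 45964 and 50406 CPM. Sprr1a and Sprr1b, small proline-rich envelope precursors, were highest in the top bin and low beyond it: Sprr1b stood at 603 CPM in the top control bin and at 64.2 in Lce1-rich barcodes. The members thus ranged from a pattern near that of spinous barcodes to a later one.

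**Figure D2:**
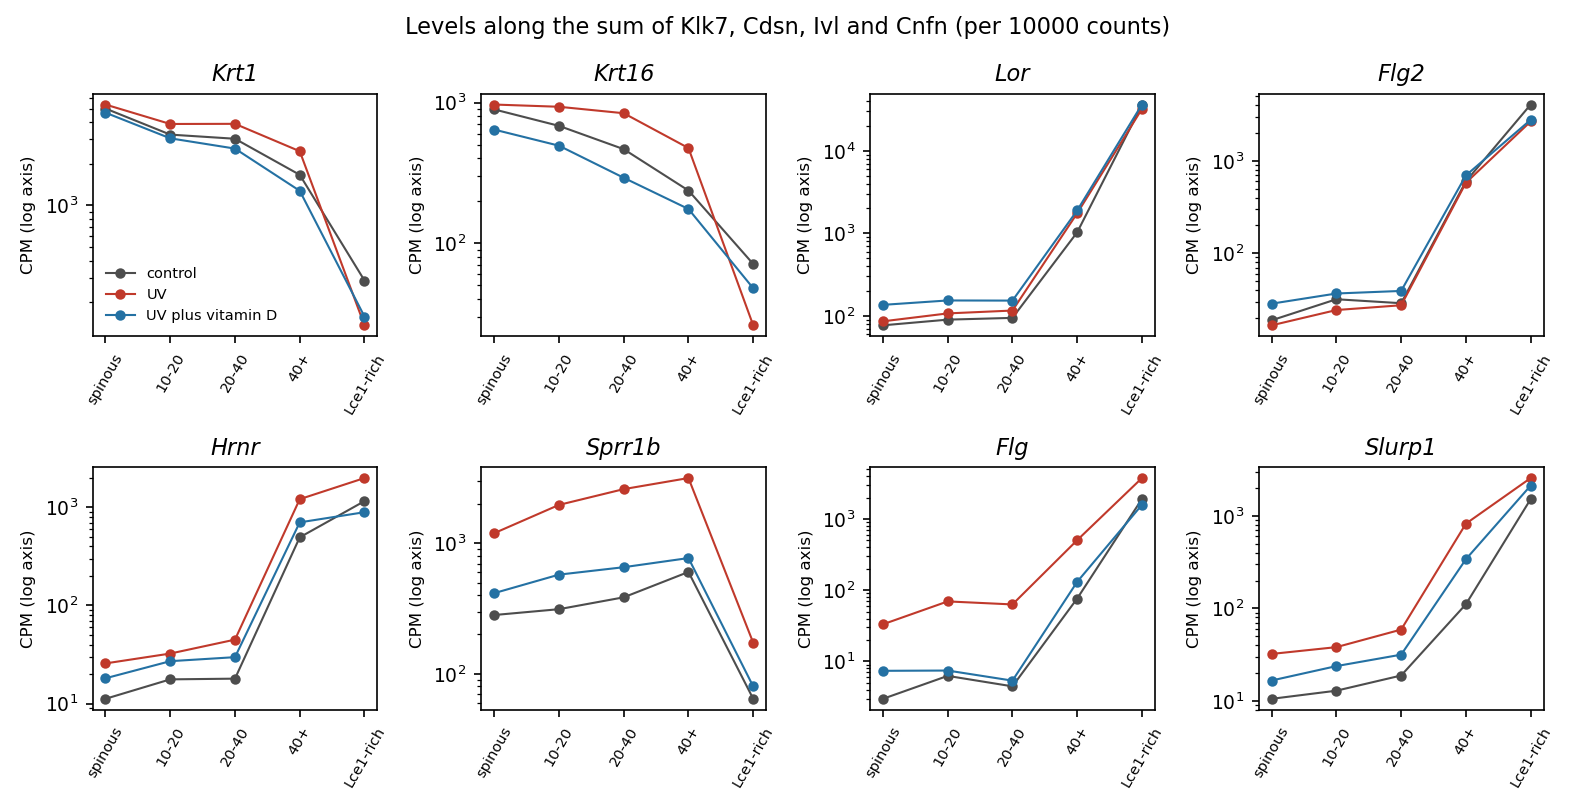
Level of 8 genes (vertical axes, CPM, log scale) in spinous barcodes, in the 3 bins of members by the sum of Klk7, Cdsn, Ivl and Cnfn, and in Lce1-rich barcodes, in control (grey), UV (red) and UV plus vitamin D (blue). Lor, Flg2 and Hrnr climb in the top bin in all 3 libraries, and the UV line lies above both others for Sprr1b, Flg and Slurp1 in every bin of members.

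UV against control asks how the granular cells of irradiated skin differed. A gene was called when its ratio reached 1.5-fold on the scale log2(CPM + 10), among genes with at least 20 counts in both libraries together. In UV, 352 of 11364 genes were called, or 3.1%: 223 higher (1.96%) and 129 lower (1.14%), with a median log2 ratio of -0.03 over all. The 8 highest ratios under the naming rule were those of BC100530, Slurp1, Flg, Sprr1b, Slurp2, Krt6b, Tppp3 and Lyz2. The 8 lowest were those of Igfbp3, Il33, Dst, Col17a1, Il1r2, Ifi202b, Arrdc3 and Krt15.

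In the list of filaggrin-type proteins and their processing, 9 of 16 measured genes were higher in UV and 0 lower (median log2 ratio 0.67). Flg encodes profilaggrin, which bundles keratin and yields the moisturising amino acids of the cornified layer. Flg stood at 52.6 CPM in control, 394 in UV and 103 in UV plus vitamin D, with UV the highest, and was 7.49-fold higher in UV than in control [7.09, 7.92]. Hrnr, hornerin, a relative of profilaggrin, was at 335, 914 and 550 CPM, and 2.73-fold higher in UV [2.66, 2.80]. Flg2 differed little, at 409, 438 and 546 CPM.

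The enzymes that turn profilaggrin into free amino acids were also called. Asprv1, the skin aspartic protease, was at 3552, 5402 and 4631 CPM and 1.52-fold higher in UV [1.51, 1.54]. Casp14, a caspase of the cornifying cell, was at 89.2, 155 and 94.0 CPM, 1.74-fold higher [1.64, 1.85]. Blmh, bleomycin hydrolase, was at 287, 487 and 294 CPM, 1.69-fold higher [1.64, 1.75]. The remaining 4 called genes were Rptn, Tchh, Tchhl1 and Crnn, and each drew over 20% of its UV counts from a single barcode, Tchh 54.1% and Crnn 97.8%. Tchh, trichohyalin, belongs to the inner root sheath of the hair. Tchhl1 and Crnn had 0 counts in control, so they could enter the list only as higher. Without such genes 5 were higher, and the median log2 ratio of 0.67 includes them.

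The promoters of Flg, Hrnr, Sprr1b and Ivl are shown because these envelope and keratohyalin genes lie in one cluster on chromosome 3 (the epidermal differentiation complex) and 3 of them were called. Each is the 250 bases before the start in RefSeq (GRCm38.p6), 5′ to 3′, at chr3:93273296-93273545 (plus strand) for Flg, chr3:93319499-93319748 (plus) for Hrnr, chr3:92438780-92439029 (minus) for Sprr1b and chr3:92573736-92573985 (minus) for Ivl. Capitals mark the AP-1 motif TGANTCA and the TATA box TATAAA, searched on both strands.
Flg: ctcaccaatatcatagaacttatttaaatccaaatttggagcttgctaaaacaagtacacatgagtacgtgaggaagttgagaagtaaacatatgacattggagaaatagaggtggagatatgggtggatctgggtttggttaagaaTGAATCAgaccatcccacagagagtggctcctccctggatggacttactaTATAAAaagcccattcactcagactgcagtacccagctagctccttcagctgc
Hrnr: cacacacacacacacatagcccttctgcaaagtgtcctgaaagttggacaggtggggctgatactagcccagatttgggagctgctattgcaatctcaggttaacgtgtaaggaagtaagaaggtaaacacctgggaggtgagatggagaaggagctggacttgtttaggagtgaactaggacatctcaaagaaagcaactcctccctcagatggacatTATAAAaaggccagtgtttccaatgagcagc
Sprr1b: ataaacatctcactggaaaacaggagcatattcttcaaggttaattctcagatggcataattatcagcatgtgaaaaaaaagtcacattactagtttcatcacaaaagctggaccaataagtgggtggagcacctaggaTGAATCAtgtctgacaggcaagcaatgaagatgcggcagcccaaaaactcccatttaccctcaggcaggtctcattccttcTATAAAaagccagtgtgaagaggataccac
Ivl: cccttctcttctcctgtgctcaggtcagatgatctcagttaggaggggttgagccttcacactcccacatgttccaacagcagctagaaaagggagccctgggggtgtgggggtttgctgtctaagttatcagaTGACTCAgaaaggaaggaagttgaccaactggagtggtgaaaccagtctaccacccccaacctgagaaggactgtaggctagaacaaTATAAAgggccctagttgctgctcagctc
AP-1 factors, dimers of the Fos and Jun families, are known regulators of epidermal differentiation genes. TGANTCA was found in 7 of 17 filaggrin-list genes with a promoter in the table, in 11 of 36 genes of the cornified envelope list and in 1 of 13 basal genes, against 7.82% of all 27025 genes. TATAAA was found in 7 of 17, 15 of 36 and 3 of 13, against 14.3% of all. A grainyhead motif, AACCGGTT, was also searched and found in 0 of 17, 0 of 36 and 0 of 13, against 0.137% of all. Among the promoters shown, those of Flg, Sprr1b and Ivl held an AP-1 match and that of Hrnr held none. A match describes letters and shows no binding, and a part of AP-1 factors in the differences was not tested. The AP-1 genes Fos and Jun were at 149, 185 and 85.8 CPM and at 159, 190 and 112 CPM, and were not called in UV against control.

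In the cornified envelope list, 9 of 32 measured genes were higher in UV and 0 lower (median log2 ratio 0.26). Sprr1b was at 519, 2949 and 737 CPM, with UV far above both others, and was 5.69-fold higher in UV [5.58, 5.79]. Its neighbour Sprr1a did not share this: it stood at 32882, 33425 and 36676 CPM. Lor was at 714, 1334 and 1496 CPM, 1.87-fold higher in UV [1.83, 1.91]. Tgm3, a transglutaminase that crosslinks the envelope, was at 9.68, 21.9 and 11.8 CPM, 2.26-fold higher in UV [1.91, 2.68]. Lce3c, Lce3d, Lce3e and Sprr2a3, also among the 9, each drew over 20% of their UV counts from 1 barcode, which leaves 5. After thinning, Lor was counted in 27.9%, 35.9% and 43.6% of members (63.1%, 69.2% and 82.7% unthinned), but also in 10.8%, 20.4% and 40% of fibroblast barcodes (24.5%, 45.8% and 64.5% unthinned), whose Lor levels were 300, 221 and 305 CPM. With vitamin D the share of members with Lor thus lay close to that of fibroblast barcodes, so only its CPM is compared.

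Of 19 measured kallikreins and related proteases, 5 were higher in UV and 0 lower (median log2 ratio 0.16), or 4 without Klk10, which drew over 20% of its UV counts from 1 barcode. Klk6 was at 22.7, 90.1 and 29.2 CPM and 3.96-fold higher in UV [3.60, 4.36]. Klk8 was at 430, 684 and 534 CPM, 1.59-fold higher [1.55, 1.64]. Prss27, a membrane-type serine protease, was at 8.24, 38.9 and 12.2 CPM, 4.73-fold higher [4.06, 5.51]. Klk5, which activates other kallikreins, was at 671, 893 and 784 CPM and was not called. Of 18 protease inhibitors, 4 were higher and 1 lower, beside 1.96% and 1.14% of all genes. Among those higher, Cst6, the cystatin M that restrains cathepsins of the cornifying cell, was at 1462, 2308 and 2391 CPM. Wfdc21 was at 1061, 1877 and 2862 CPM. With the bins weighted as in control, the log2 ratios of Klk8 at 0.58 (0.66), Cst6 at 0.54 (0.66) and Asprv1 at 0.53 (0.60) were short of 1.5-fold.

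Slurp1 and Slurp2 encode secreted Ly6-type proteins of keratinocytes, and loss of SLURP1 causes a human palmoplantar keratoderma. Slurp1 was at 79.0, 628 and 269 CPM, and was 7.95-fold higher in UV than in control [7.61, 8.31]. Slurp2 was at 46.5, 261 and 114 CPM, 5.61-fold higher [5.27, 5.96]. After thinning, Slurp1 was counted in 7.82%, 23.8% and 16.5% of members (19.5%, 47.6% and 38.5% unthinned) and in 2.16%, 7.39% and 2.73% of fibroblast barcodes. Flg was counted in 4.48%, 23.3% and 9.97% of members (10.6%, 45.0% and 19.8% unthinned) and in 1.44%, 8.87% and 2.73% of fibroblast barcodes.

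The stefin A cluster, cytosolic inhibitors of cathepsins, was higher in UV with barcodes of 2 or more Stfa3 counts (Stfa3-positive barcodes) removed. Members could still hold 1 count of Stfa3, and its own log2 ratio of UV to control among them was 1.002. BC100530 was at 7.48 CPM in control, 290 in UV and 23.6 in UV plus vitamin D, a 38.8-fold difference between UV and control [34.2, 44.2]. Stfa1 was at 9.79, 42.3 and 15.3 CPM, 4.32-fold higher in UV [3.74, 4.98]. Csta1, the stefin A of the cornified envelope, was at 225, 401 and 414 CPM, 1.79-fold higher [1.72, 1.85]. In all, 3 of 5 measured genes of the cluster were higher. BC100530 stood at 13.1 CPM in spinous barcodes of control and 294 in those of UV, so its difference was not limited to the granular members. With Stfa3-positive barcodes kept, the log2 ratio of BC100530 was 6.48, against 4.10 with the rule as given.

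Among keratins, the wound-type pair differed most. Krt6a was at 10.02, 60.8 and 10.7 CPM and 6.06-fold higher in UV [5.32, 6.92]. Krt6b had 0 counts in control, 362 in UV and 45 in UV plus vitamin D, which puts UV at least 407-fold higher at a floor of 3 counts per library. Krt6a and Krt6b are near-identical copies, so reads could be split between them. With Stfa3-positive barcodes kept, the log2 ratio of UV to control was 3.04 for Krt6a (1.82 with the rule as given) and 4.45 for Krt6b (2.15). Krt16, their partner, was at 348, 578 and 222 CPM, 1.66-fold higher in UV [1.61, 1.71]. Keeping those barcodes also put Flg at 3.34 (2.69) and Stfa1 at 3.20 (1.40). Thinned to 2500 counts per barcode, Krt16 was at 0.54 (0.72), short of 1.5-fold. The suprabasal keratins Krt1 and Krt10 were not called, at 2158, 2824 and 1621 CPM and at 15212, 16946 and 13883 CPM, but Krt1 passed 1.5-fold with Stfa3-positive barcodes kept, at 0.83 (0.39).

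Cytokines and alarmins were mixed, with 10 of 30 measured genes higher and 2 lower, or 9 higher without S100a3, whose UV counts came in like manner from 1 barcode. Il1f6 and Il1f8, older symbols of the interleukin 36 alpha and beta genes, alarm cytokines of the epidermis, were both higher: Il1f6 was at 28.6, 99.9 and 101 CPM (3.49-fold [3.20, 3.81]) and Il1f8 at 2.85, 33.0 and 7.91 CPM (11.6-fold [9.26, 14.6]). Il33, a nuclear alarmin, was at 86.2, 23.2 and 17.3 CPM and 3.71-fold lower in UV [3.26, 4.25]. Tslp, a vitamin D-responsive cytokine of mouse epidermis, was also lower, at 28.0, 11.4 and 15.2 CPM (2.45-fold [2.02, 2.98]).

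Basal-type genes were lower, with 9 of 20 called lower and 1 higher (median log2 ratio -0.34). Igfbp3, which binds insulin-like growth factors, was at 229, 37.5 and 98.4 CPM and 6.11-fold lower in UV [5.53, 6.78]. Col17a1 and Dst, hemidesmosome components, were at 56.6, 15.7 and 21.3 CPM (3.60-fold lower [3.07, 4.25]) and at 32.1, 5.90 and 9.11 CPM (5.44-fold lower [4.21, 7.14]). Krt15 was at 133, 51.6 and 44.5 CPM, 2.58-fold lower [2.36, 2.82]. The gene higher was Dcn, a fibroblast proteoglycan on this list. Basal barcodes were 874 of 9078 in control, 226 of 5451 in UV and 441 of 6199 in UV plus vitamin D, and their part in these values through free RNA was not tested.

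Igfbp3 was lower within each bin too, at 519 and 137 CPM in the lowest bin and 136 and 23.7 CPM in the top bin of control and UV. Il33 in the top bin was at 40.8 and 9.82 CPM. Ifi202b, a DNA sensor of the interferon-inducible family, was at 760, 312 and 364 CPM, 2.44-fold lower in UV [2.35, 2.53]. Its list ran the other way (median log2 ratio 0.18). Of 26 interferon response genes 4 were higher and Ifi202b alone was lower, beside 1.96% and 1.14% of all genes. The 4 were low genes, such as Ifi27l2a at 1.83 CPM in control and 13.9 in UV and Irf1 at 1.04 and 11.1 CPM. Plet1, a membrane protein of epithelium, was at 2145, 1000 and 2097 CPM, 2.14-fold lower [2.10, 2.19]. Il1r2, the decoy receptor of interleukin 1, was at 85.6, 27.7 and 58.3 CPM, 3.09-fold lower [2.74, 3.49], and its log2 ratio of -1.34 was -0.63 with Lce1-rich barcodes kept. Arrdc3, an arrestin-type protein, was at 71.5, 24.1 and 35.5 CPM, 2.97-fold lower [2.61, 3.39]. Against these, Tppp3, a tubulin-binding protein, was at 35.3, 172 and 46.2 CPM, 4.87-fold higher in UV [4.52, 5.23].

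In the stress lists of this paragraph the called genes were lower in UV, except for 1 immediate early gene. Among 22 heat shock chaperones 2 were lower, Hspa5, the chaperone BiP of the endoplasmic reticulum, at 1325, 805 and 799.5 CPM (1.64-fold [1.61, 1.68]), and Hspa2. Of 31 genes of p53 targets and DNA repair 0 were higher and 2 lower in UV, beside 1.96% and 1.14% of all genes. Cdkn1a, the p21 cell cycle inhibitor, was at 2753, 1966 and 2646 CPM and was not called. Of 29 immediate early genes 1 was higher, near the 1.96% of all genes, and 3 lower (median log2 ratio 0.15). Nfkbia, the feedback inhibitor of NF-kB and one of the 3, was at 2134, 1069 and 1273 CPM, 2.0-fold lower in UV [1.96, 2.04]. Of 28 oxidative stress and metallothionein genes 5 were lower, among them Mt2 at 65.4, 32.7 and 32.1 CPM and Prdx6, a peroxiredoxin, at 309, 183 and 229 CPM.

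Few barrier lipid enzymes, desmosome parts and junction genes were called, near the 3.1% of all genes, so these counts do not set the lists apart. Their median log2 ratios were 0.06, -0.14 and -0.11, against -0.03 over all genes. Of 39 enzymes and transporters of barrier lipids 1 was called, Smpd1, the acid sphingomyelinase that makes ceramide, at 77.3, 152 and 120 CPM (1.97-fold higher [1.85, 2.09]). Of 14 desmosome genes 0 were called, and of 18 tight and gap junction genes 1, beside 3.1% of all genes. Dnase1l2, a DNase that degrades nuclear DNA during cornification, was the 1 called gene among 25 of nuclear removal and autophagy, at 15.6, 50.7 and 28.8 CPM (3.24-fold higher [2.87, 3.66]).

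**Figure D3:**
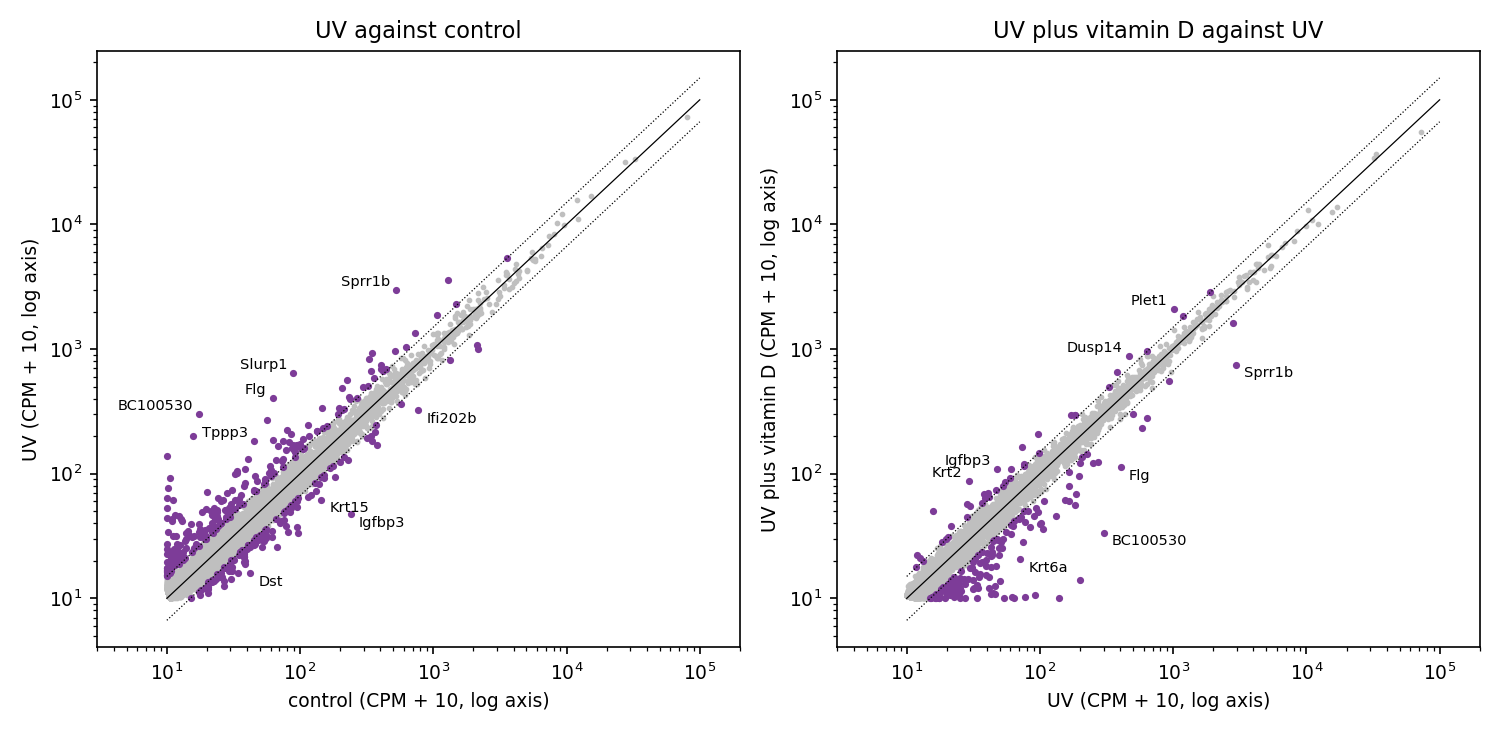
Levels of all tested genes in the members (CPM plus 10, both axes log), UV against control at the left and UV plus vitamin D against UV at the right. Purple points are past 1.5-fold (dotted lines); Sprr1b, Flg and BC100530 lie above the line at the left and below it at the right.

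Markers of other cells were also higher in the UV members, and their values stand beside all of the above. The 20 immune markers summed to 139, 437 and 142 CPM in the members, and 19 of the 20 had a count in each library. Of 18 measured, 10 were higher in UV and 1, Cd207, was lower. Without H2-Aa, which drew over 20% of its UV counts from 1 barcode, 9 were higher. Cd207 drew over 20% of its control counts from 1 barcode. Ptprc was 0 by the rule. Lyz2, a lysozyme of myeloid cells, was at 2.26, 36.0 and 2.49 CPM, and Cd74 at 53.1, 178 and 58.4 CPM. The 14 fibroblast markers summed to 1538, 1749 and 1488 CPM, nearly all from Gsn, with 4 of 10 higher in UV, and the 8 melanocyte markers to 19.6, 72.5 and 34.1 CPM. Of 13 measured hair follicle markers 6 were higher in UV, 5 of them with over 20% of their UV counts in 1 barcode. Crip1, a LIM protein found in immune cells, was at 23.9, 95.8 and 26.3 CPM, 4.01-fold higher in UV [3.66, 4.40]. The part of such cells in the results was not tested.

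The UV values were also taken without the barcodes that held such counts, in alternatives chosen after seeing the data. Leaving out barcodes in which 25 markers of other cell types made up 10 per 10000 counts or more removed 15, 43 and 13 members, and the log2 ratios of UV to control were then 2.83 for Slurp1 and 2.67 for Flg, against 2.84 and 2.69. For Lyz2 it was 1.004 against 1.91. Leaving out every barcode with 3 or more such counts removed 348, 571 and 421 members, 68.6% in UV, and those left in UV had a lower median 4-gene sum, 40.3 against 105.9 per 10000 in those removed. The log2 ratio was then 1.79 for Slurp1, 1.92 for Flg, 1.44 for Slurp2 (2.26 with all members), 0.05 for Il1f6 (1.51) and 0.12 for Wfdc21 (0.82). Of the genes lower in UV, Il33 was at -0.70 (-1.53), Dst at -0.75 (-1.40), Col17a1 at -0.55 (-1.37) and Krt15 at -0.24 (-1.22). Klk6 was at 0.41 (1.61), Lor at 0.42 (0.89), Smpd1 at 0.36 (0.89), Blmh at 0.40 (0.74), Casp14 at 0.47 (0.74), Asprv1 at 0.36 (0.60), Klk8 at 0.38 (0.66) and Cst6 at 0.35 (0.66), all short of 1.5-fold. So were Mt2 at -0.36 (-0.82), Prdx6 at -0.45 (-0.73) and Hspa2 at -0.55 (-0.80). Sprr1b, at 2.54 (2.48), Tppp3, at 1.95 (2.0), and Krt6a, at 2.03 (1.82), moved little.

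UV plus vitamin D against UV asks what the treatment added in irradiated skin. This comparison shares the UV library with the one above, so a gene high in UV for any reason is high in one and low in the other. Of 11422 genes, 185 were called (1.62%): 39 higher (0.341%) and 146 lower with vitamin D (1.28%), with a median log2 ratio of 0.01. The 8 lowest ratios under the naming rule were those of BC100530, Krt6b, Sprr1b, Lyz2, Flg, Krt6a, Tppp3 and Crip1, and the 8 highest those of Krt2, Igfbp3, Slpi, Plet1, Scgb1a1, Dusp14, Cryl1 and Il1r2.

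In the filaggrin list 8 of 16 genes were lower with vitamin D and 0 higher (median log2 ratio -0.55), or 4 without Rptn, Tchh, Tchhl1 and Crnn. The median includes these genes, and Tchhl1, at 0 counts with vitamin D, could enter only as lower. Flg was 3.83-fold lower [3.67, 4.0], Hrnr 1.66-fold [1.62, 1.70], Casp14 1.65-fold [1.56, 1.75] and Blmh 1.66-fold [1.60, 1.71]. In the envelope list 4 of 32 genes were higher and 6 lower. Sprr1b was 4.0-fold lower [3.94, 4.07], whereas Crct1, at 1053, 1171 and 1833 CPM, was 1.57-fold higher [1.54, 1.60]. Lce6a, at 12.2, 11.4 and 28.2 CPM, was 2.47-fold higher [2.04, 3.0], but its log2 ratio of 0.83 became -0.83 when Lce1-rich barcodes were kept. Of the 6 lower, 5 drew over 20% of their UV counts from 1 barcode, and Sprr1b is the other.

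BC100530 was 12.3-fold lower with vitamin D [11.4, 13.3], Krt6a 5.70-fold [5.03, 6.45] and Krt16 2.60-fold [2.52, 2.69]. Krt6b was 31.1-fold lower [22.8, 43.4]. With Stfa3-positive barcodes kept, the log2 ratio was -5.50 for BC100530 (-3.16), -2.88 for Krt6a (-1.78), -3.76 for Krt6b (-2.0) and -2.50 for Flg (-1.84). Krt2, the epidermal keratin of late suprabasal cells, stood at 19.9, 19.3 and 77.7 CPM and was 4.02-fold higher with vitamin D than in UV [3.49, 4.66]. Krt2 was also higher in spinous barcodes, at 13.6, 10.2 and 86.5 CPM, so the difference was not limited to the granular members. After thinning, Krt2 was counted in 3.20%, 2.52% and 7.31% of members (9.73%, 8.29% and 18.4% unthinned) and in 0, 0 and 2 of 139, 406 and 110 fibroblast barcodes.

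Among proteases and inhibitors, Ctsl, cathepsin L, was at 328, 367 and 650 CPM and 1.77-fold higher with vitamin D [1.71, 1.83]. Klk6 was 3.08-fold lower [2.83, 3.36] and Prss27 3.19-fold lower [2.79, 3.64]. Slpi, the secretory leukocyte protease inhibitor, was at 137, 86.0 and 197 CPM, 2.29-fold higher [2.13, 2.45]. Slurp1 was 2.33-fold lower [2.26, 2.40]. Without the barcodes that held 3 or more counts of other cell types, the log2 ratio was -0.14 for Slurp1 (-1.19 with all members), -1.01 for Flg (-1.84), 0.17 for Hrnr (-0.72) and 3.61 for Slpi (1.11). Klk6 at -0.19 (-1.35), Prss27 at -0.55 (-1.14), Blmh at -0.36 (-0.71) and Casp14 at -0.39 (-0.67) were then short of 1.5-fold, while Sprr1b was at -2.04 (-1.99). With Lce1-rich barcodes kept, Ctsl was at 0.55 (0.81) and Crct1 at 0.47 (0.64).

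Plet1 was 2.10-fold higher with vitamin D than in UV [2.05, 2.14], and Dusp14, a phosphatase, was at 587, 455 and 868 CPM, 1.91-fold higher [1.85, 1.97]. Igfbp3 was 2.62-fold higher [2.37, 2.92] and Il1r2 2.10-fold [1.86, 2.38]. Cryl1, a lambda-crystallin dehydrogenase, was at 38.5, 19.7 and 45.6 CPM, 2.31-fold higher [2.0, 2.68], and Scgb1a1, a secretoglobin, at 12.6, 18.3 and 47.5 CPM, 2.60-fold higher [2.24, 3.03]. Cldn4, a tight junction claudin of the granular layer, at 669.5, 622 and 958 CPM, was 1.54-fold higher [1.5, 1.58], but short of 1.5-fold on the log2 scale with median-of-ratios scaling, at 0.57 (0.62). Fos was 2.16-fold lower [2.04, 2.28] and Jun 1.69-fold lower [1.61, 1.78]. Of 22 heat shock chaperones and 31 genes of p53 targets and DNA repair 0 were called either way, near the 1.62% of all genes. Of 25 interferon response genes 4 were lower and 0 higher (median log2 ratio -0.22), among them Ifitm3, an antiviral membrane protein, at 59.8 CPM in UV and 33.9 with vitamin D. The log2 ratio of Ifitm3 (-0.67) was -0.34 without barcodes with 10 per 10000 or more of other cell types. It was -0.58 without those with 3 or more such counts, and both values were short of 1.5-fold. With each barcode thinned to 2500 counts, the log2 ratios of Jun at -0.43 (-0.71), Hrnr at -0.58 (-0.72) and Casp14 at -0.56 (-0.67) were short of 1.5-fold.

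Of 22 measured genes of the vitamin D and calcium list 0 were called with vitamin D against UV, near the 1.62% of all genes. Vdr, the vitamin D receptor, stood at 69.3, 47.3 and 52.0 CPM in the 3 libraries. Calml3, a calmodulin-like protein of differentiating epithelium, was at 217, 555 and 456 CPM and was the 1 gene of the list called in UV against control (2.56-fold higher [2.47, 2.65]). Cyp24a1, the enzyme that vitamin D induces to break itself down, and Cyp27b1, which makes the active hormone, were too low to be measured.

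UV plus vitamin D against control shows where the treated irradiated library still differed. Of 11965 genes 172 were called (1.44%): 102 higher (0.852%) and 70 lower (0.585%), with a median log2 ratio of -0.02. Slurp1 was 3.41-fold higher than in control [3.27, 3.56], Il1f6 3.52-fold [3.28, 3.77] and Wfdc21 2.70-fold [2.67, 2.73]. Lor was 2.10-fold higher [2.07, 2.13] and Calml3 2.10-fold [2.05, 2.16]. Phlda1, F3 (tissue factor) and Ide (the insulin-degrading protease) were 2.53-fold [2.43, 2.62], 2.30-fold [2.25, 2.35] and 2.37-fold higher [2.31, 2.44]. Krt2 was 3.91-fold higher [3.60, 4.25].

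Of 20 basal-type genes 8 were lower and 0 higher than in control (median log2 ratio -0.34). With the bins weighted as in control, Krt5 was at -0.45 (-0.74) and Krt14 at -0.39 (-0.67), both short of 1.5-fold, and 129 genes were called over all in place of 172. Il33 was 4.99-fold lower [4.60, 5.43], Krt15 2.99-fold [2.83, 3.16], Igfbp3 2.33-fold [2.24, 2.42] and Ifi202b 2.09-fold [2.04, 2.13]. Hes1, a transcription factor induced by Notch, was at 31.9, 26.9 and 9.46 CPM, 3.37-fold lower [3.0, 3.80]. In the filaggrin list 2 of 12 genes were called, Flg and Hrnr, both higher than in control. With the 3 bins weighted as in control, Hrnr was at a log2 ratio of 0.50 (0.70), short of 1.5-fold. Sprr2i, a small proline-rich protein gene, was at 125, 83.3 and 43.1 CPM, 2.90-fold lower than in control [2.75, 3.07], and 44.6% of its UV counts came from 1 barcode. The immune markers, at 139 against 142 CPM, had 0 of 18 called, beside 1.44% of all genes.

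**Figure D4:**
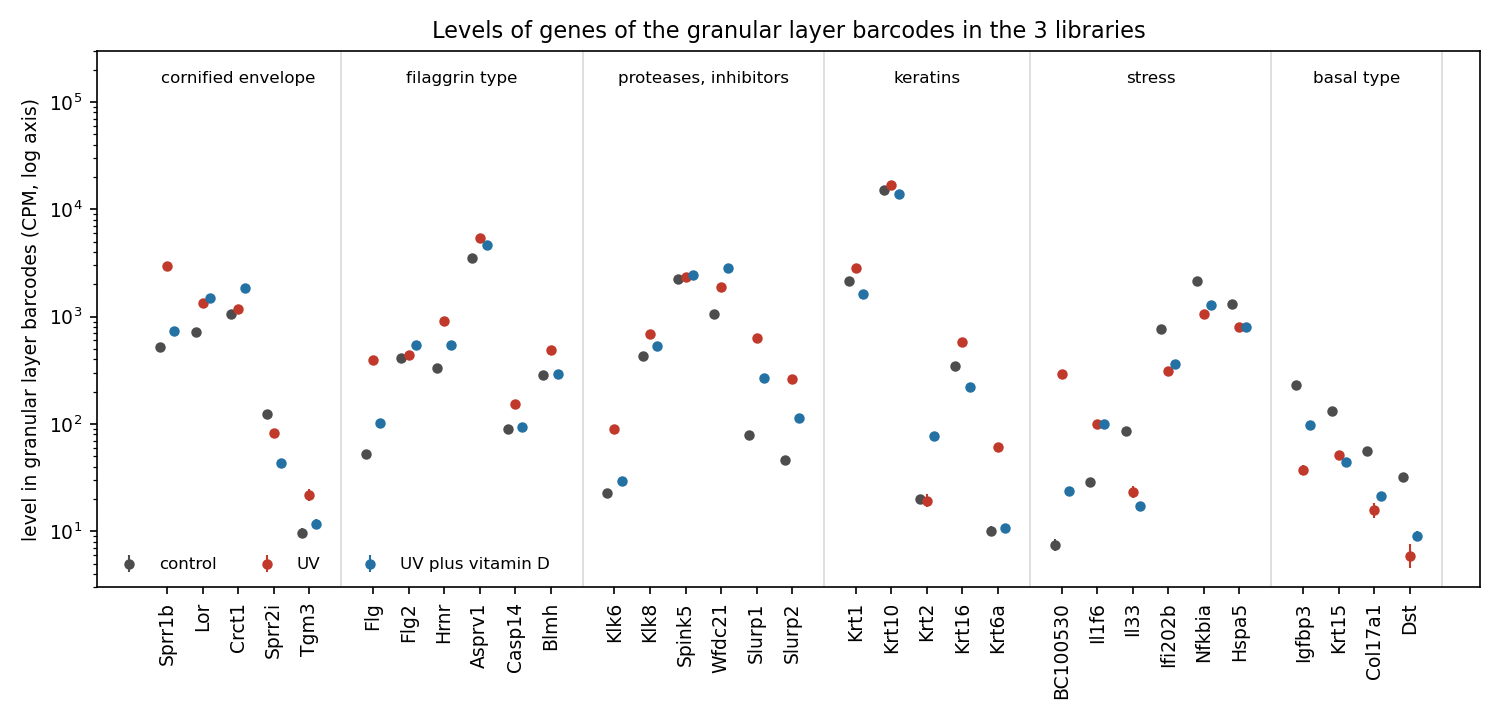
Level of 32 genes in the members (vertical axis, CPM, log scale) by role, in control (grey), UV (red) and UV plus vitamin D (blue), with exact Poisson 95% intervals where wider than the point. UV stands alone at the top for Sprr1b, Flg and BC100530, and both irradiated libraries lie below control for Il33, Nfkbia, Hspa5 and Col17a1.

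**Figure D5:**
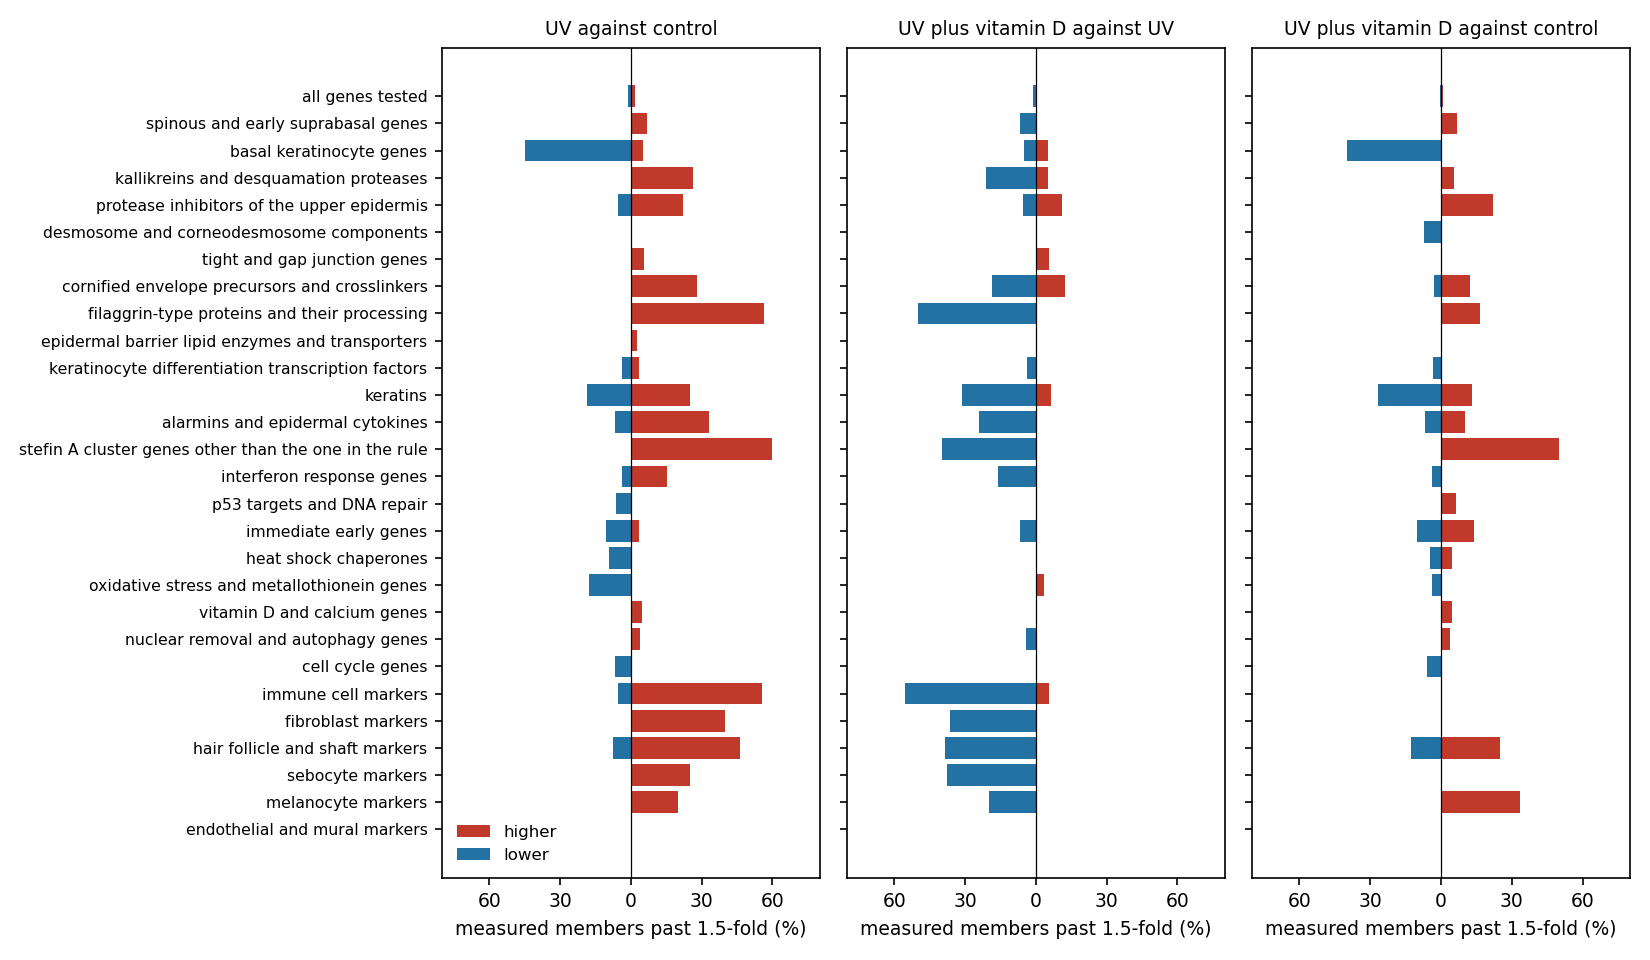
Share of measured list members past 1.5-fold (horizontal axes, percent; red higher, blue lower) for each list and for all genes tested, in the 3 comparisons. Filaggrin-type genes stand out to the right in UV against control (9 of 16) and to the left in UV plus vitamin D against UV (8 of 16), as do markers of immune cells (10 of 18 each).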

How the data were processed

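The 3 libraries of whole skin were profiled by single-cell RNA sequencing, and the treatment label gave each its group. Each deposited table held raw whole-number counts for genes by barcodes. FastQC, fastp, STAR and featureCounts are listed, with no versions, per the submitters' processing notes, which also list GRCh38. That build is human while the symbols are mouse symbols, so the build the authors aligned to is unclear and no coordinates were taken from the tables. Whether molecules or reads were counted was not given in the sources; if reads, the intervals are too narrow. A gene missing from a library's table was taken as 0. Member counts were summed per library and scaled to CPM here. Folds are ratios of CPM with exact conditional intervals, and log2 ratios add 10 CPM to both sides, which understates differences of low genes. Named genes were the 8 highest and 8 lowest log2 ratios per comparison whose higher library held 50 counts or more, with an interval wholly beyond 1.5-fold and at most 20% of those counts from 1 barcode (mitochondrial, ribosomal protein, haemoglobin, rRNA, Gm and Rik genes and those of the rule left out), and list members with at least 50 counts. Plet1 beside UV against control was named after its values were seen. The members and lists were chosen with earlier results of these data known. Calls and intervals were tested on simulated Poisson counts. These hold no spread between barcodes, animals or libraries, so that test covers counting error only. Python 3.11.15, numpy 2.4.6, scipy 1.17.1 and pandas 2.3.3 were used. Other limits, denominators, scalings, pseudocounts and barcode filters were tried as alternatives, 3 of them added after seeing the data.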

Additional observations from a re-analysis of the deposited data

How the results depend on the processing

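With 1 library per group, batch and condition cannot be told apart, no replicate could be left out, and counting intervals leave out all variation between animals. No paired analysis was possible because each group had 1 library. Deeper libraries would narrow the intervals only. The log2 ratio of the share of members was -1.05 for UV against control. It was -0.94 with a limit of 20 per 10000, -0.70 without the Stfa3 limit, -0.57 with Krt79, Ptprc and Col1a2 each at most 1, -0.32 with no limit on these genes, -0.66 over barcodes with keratins and -2.54 without barcodes with 3 or more counts of other cell types. For UV plus vitamin D against UV it was 1.55, and 1.21 without the Stfa3 limit, 0.97 at most 1, 0.65 with no limit on the 3 genes, 1.12 over keratin barcodes and 2.99 without the barcodes with other cell types' counts. For UV plus vitamin D against control it was 0.50, and 0.64 with a limit of 20, 0.58 without the Lce1 limit, 0.40 at most 1 and 0.32 with no limit on the 3 genes. The direction held in each of these cases. It did not hold for UV against control with the limit of the 4 genes alone, where the ratio of shares was 1.02 [0.985, 1.06]. A pseudocount of 1 CPM raised the called genes to 1688 (849 higher, 839 lower), 993 (327 and 666) and 799 (324 and 475) in the 3 comparisons, as low genes then pass. Without barcodes with 3 or more counts of other cell types, 281 genes were called between UV plus vitamin D and UV (131 higher, 150 lower). Splits also differed for UV against control with no limit on the 3 genes (317 higher, 103 lower) and with median-of-ratios scaling (269 and 92), and for UV plus vitamin D against control without mitochondrial and rRNA genes (90 and 98). Under the same removal of barcodes some genes changed sign. In UV against control Krt14 was at 0.0024, Krt5 at 0.0179, Lce3c at -1.11 and Lce3d at -0.0718. In UV plus vitamin D against UV Sprr2i was at 1.32, Hrnr at 0.17, Lce3c at 0.69 and Lce3d at 0.28. Without the 5% of barcodes with the highest totals Lce3d was at -0.0219 and 0.37 in these comparisons, and without the Lce1 limit Lce6a was at -0.83 in the latter. The cause was not tested.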
